A study of Rattus norvegicus with 2 samples.

Results

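The sulfotransferases and UDP-glucuronosyltransferases examined here are a set of 10 rat genes, 6 of the Sult family and 4 of the Ugt2 family, chosen by gene symbol in the annotation of an Affymetrix rat expression array. Of the 10, 7 had a probe set listing that gene alone, out of 14217 genes named on the array: Sult1a1, Sult1b1, Sult1c2, Sult1c3, Sult1e1, Sult2a1 and Ugt2b1. No probe set carried the symbol Ugt2b17, Ugt2b37 or Ugt2a3, and these 3 genes have no values here. In the RefSeq table Ugt2b17 is an older name of both Ugt2b1 and Ugt2b15, so it was assigned to neither.

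The samples were liver remnants of rats 24 h after partial hepatectomy (PH), in which a surgeon takes out part of the organ and the remnant regrows. In 1/3PH the smaller part had been removed and in 2/3PH the larger one. Each operation was done on 3 rats, whose RNA was combined into a pool and hybridised to 1 array, so 6 rats gave 2 measurements. The sources used here name no strain, sex or age of the rats, and no unoperated or sham-operated liver was measured. According to the series' design text, the purpose was to find transcripts that differ between an operation followed by strong DNA replication and one followed by little.

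Both enzyme families attach a bulky, charged group to small molecules, which makes them easier to excrete and usually ends their activity. Sulfotransferases of the cytosol transfer sulfate from the donor PAPS to phenols, steroids, thyroid hormones and bile acids. UDP-glucuronosyltransferases, in the membrane of the endoplasmic reticulum, transfer glucuronic acid from UDP-glucuronate to bilirubin, steroids, bile acids and drugs. The liver is a main site of both reactions.

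Sult1c3 was the member that differed most, 6.89-fold lower after 2/3PH than after 1/3PH. Ugt2b1, Sult1e1 and Sult1a1 were also below their 1/3PH signals, by 1.92-fold, 1.66-fold and 1.51-fold. Sult1c2 and Sult1b1 lay near equality, and Sult2a1 was too dim on both arrays for a ratio to be read. All ratios are log2 signal in 2/3PH minus log2 signal in 1/3PH, and a gene is called higher or lower at 2-fold or more. A single array per operation gives no spread between replicates and allows no test, and the words higher and lower describe these 2 pools only.

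A floor of 6.48 on the mean log2 signal, a signal of 89.2 and the median over all probe sets, separated dim from measurable genes, and 6 of the 7 members passed it. Of these 6, 1 was at least 2-fold lower, against a background of 3.68% of the 9514 genes above the floor. None was at least 2-fold higher, against 6.12%. At a limit of 1.5-fold, 4 of the 6 were lower on the deposited scale, against 12.0% of all genes. Sult1a1 only just passed, at 1.51-fold. Sult1e1 and Sult1a1 fell short of that limit with quantile normalization, at log2 ratios of -0.57 and -0.44. They also did so with loess, at -0.54 and -0.44, and with scaling to hybridisation controls, at -0.50 and -0.36. With scaling to poly-A controls Ugt2b1 fell short as well, at -0.50. The median log2 ratio of the 6 was -0.66, and that of all genes above the floor was 0.03. Of the 6, 5 were bright genes, and above a floor at the 75th percentile 3.61% of genes were at least 2-fold lower.

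**Figure D1:**
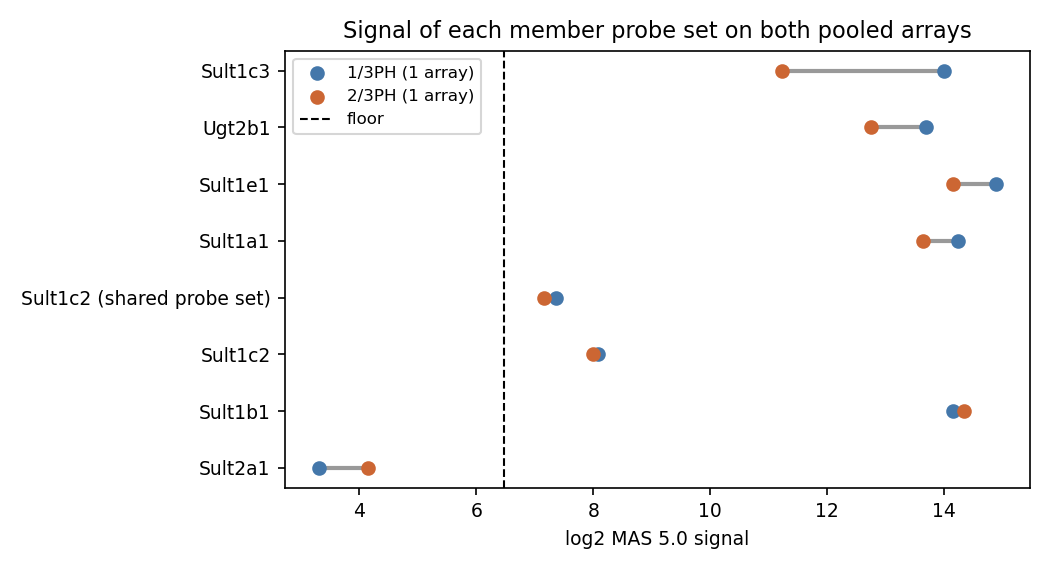
Log2 MAS 5.0 signal (x axis) of each member probe set (rows) on the 1/3PH array (blue) and the 2/3PH array (orange), each 1 pool of 3 rats, with the floor as a dashed line. The line joining the points is longest for Sult1c3, from 14.01 to 11.23, and both Sult2a1 points lie under the floor.

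Sult1c3 is a sulfotransferase of the 1C subfamily, also listed by RefSeq under the older name HAST-I, an enzyme known for sulfating hydroxylated arylamines. Its signal was 16487 in the 1/3PH pool and 2394 in the 2/3PH pool, a log2 ratio of -2.78. Only 5 of the 9514 genes above the floor had a lower ratio. The gene was bright on both arrays, at a log2 signal of 14.01 and 11.23, and a single probe set measured it. Across 5 other scalings of the arrays the log2 ratio lay between -2.84 and -2.34.

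The RefSeq sequence just before the annotated start of Sult1c3 is shown because this gene differed most; its 120 bases at chr9:7594257-7594376 (GRCr8, minus strand) are in lower case since none of the motifs searched was in it.
Sult1c3: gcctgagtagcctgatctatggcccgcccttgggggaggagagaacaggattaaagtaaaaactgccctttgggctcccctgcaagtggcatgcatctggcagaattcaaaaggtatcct
The motifs were the TATA box TATAAA, the HNF1 half-site GTTAAT, the nuclear receptor half-site AGGTCA, the STAT site TTCNNNGAA, the xenobiotic response element core GCGTG and GTCATGAAC, the inner part of an inverted repeat without spacer. Both strands of the 250 bases before each start were searched. Among 33469 rat promoters, 12.9% held TATAAA, 6.45% GTTAAT, 14.1% AGGTCA, 7.67% TTCNNNGAA, 25.9% GCGTG and 0.120% GTCATGAAC. None of them was in these windows of Sult1c3, Sult1a1, Sult1b1, Sult1c2 or Ugt2b1, which says only that these letters are not there. Sult1e1 held 1 AGGTCA.

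Among the neighbours of Sult1c3 in its subfamily, 2 had a named probe set: Sult1c2, near equality, and Sult1c2a, also lower but by less than Sult1c3. Sult1c2 had signals of 269 and 257, a log2 ratio of -0.07, which turned positive, at 0.17 and 0.37, when the arrays were scaled to hybridisation or poly-A controls. A further probe set lists Sult1c2 together with the symbol RGD1562392 and had signals of 164 and 143. It is named for neither gene, and its log2 ratio was -0.20, or 0.04 and 0.24 under those scalings. Sult1c2a, which is not among the 10 genes, had signals of 2082 and 836 on a probe set of its own and was 2.49-fold lower. In the RefSeq gene order Sult1c2 lies between Sult1c2a and Sult1c3, the genes called lower, but is adjacent to neither. Genes without a probe set of their own, and so without a value, lie on each side of Sult1c2. Among them is Sult1c2al1, between Sult1c2 and Sult1c3. With poly-A scaling Sult1c2a missed the 2-fold limit, at -0.88.

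Sult1e1, the estrogen sulfotransferase, had a signal of 30330 in the 1/3PH pool and 18278 in the 2/3PH pool. Its log2 ratio was -0.73, and 7.97% of genes above the floor had a lower one. Sult1a1, which sulfates phenols such as many drugs, had signals of 19260 and 12739, a log2 ratio of -0.60, with 11.6% of genes below it. Neither passed the 2-fold limit. Both ratios stayed below 0 in all 5 scalings, reaching -0.29 for Sult1e1 and -0.15 for Sult1a1 with poly-A scaling.

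Sult1b1, which sulfates thyroid hormones and small phenols, was the only member above the floor with a ratio over 0. Its signals were 18256 and 20654, a log2 ratio of 0.18, between 0.13 and 0.62 in the 5 scalings. Of the genes above the floor, 99.3% were dimmer than Sult1e1, 98.8% than Sult1b1, 98.0% than Sult1a1, 96.0% than Ugt2b1 and 93.3% than Sult1c3, but 24.6% than Sult1c2. A probe set's brightness also depends on its probes, so these shares do not order the transcripts. Whether brighter genes had more precise ratios was not tested.

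Sult2a1, a hydroxysteroid sulfotransferase of bile acids and adrenal steroids, was under the floor on both arrays. Its signals were 9.91 and 17.8, and no fold is given. A relative outside the 10 genes, Sult2a6, was bright, with signals of 4871 and 12009. It was 2.47-fold higher after 2/3PH, a log2 ratio of 1.30, and between 1.25 and 1.74 in the 5 scalings. Sult2a2, the third measured gene of that cluster, was also under the floor, at 38.0 and 63.7. Sult5a1, the remaining relative above the floor, had signals of 134 and 247, a log2 ratio of 0.88 that passed the 2-fold limit with hybridisation control scaling, at 1.12, and with poly-A scaling, at 1.32. Closely related transcripts can share probes, and how far they did so here was not tested.

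The promoters of Sult2a1 and Sult2a6 are shown because these windows are nearly the same: of 250 bases before the annotated start, 245 were identical, or 98.0%. Capitals mark the 5 bases that differ. The windows are chr1:84638948-84639197 for Sult2a1 and chr1:84097809-84098058 for Sult2a6, both on the minus strand of GRCr8.
Sult2a1: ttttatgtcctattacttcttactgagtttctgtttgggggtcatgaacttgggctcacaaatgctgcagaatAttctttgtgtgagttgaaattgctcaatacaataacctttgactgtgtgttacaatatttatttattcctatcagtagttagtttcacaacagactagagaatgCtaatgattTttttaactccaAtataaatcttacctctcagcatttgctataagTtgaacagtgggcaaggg
Sult2a6: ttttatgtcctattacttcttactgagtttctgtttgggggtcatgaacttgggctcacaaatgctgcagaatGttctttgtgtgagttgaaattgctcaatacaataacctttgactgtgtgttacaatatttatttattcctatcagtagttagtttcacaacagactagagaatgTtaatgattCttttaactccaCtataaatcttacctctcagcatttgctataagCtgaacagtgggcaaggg
Both windows held TATAAA and GTCATGAAC, as did that of Sult2a2. The HNF1 half-site GTTAAT was in the window of Sult2a6 and of Sult2a2 but not of Sult2a1. These matches are descriptions of sequence and not sites shown to be bound.

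Ugt2b1, a glucuronosyltransferase of steroids and phenols such as bisphenol A, was the only measured Ugt member. Its signal was 13217 in the first pool and 6881 in the second. The log2 ratio of -0.94 fell just short of the 2-fold limit. Of the genes above the floor, 4.38% had a lower ratio. The ratio ranged from -0.99 with median centring to -0.50 with poly-A scaling.

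Of the other glucuronosyltransferases listed, 5 passed the floor. All 5 had ratios below 0 on the deposited scale, with a median of -0.37, though not with poly-A scaling. Ratios below 0 were also common among all genes above the floor, whose median was 0.03. Ugt2b10 was 2.69-fold lower, with signals of 5267 and 1961. Ugt2b35 had signals of 22977 and 16383, a log2 ratio of -0.49. Ugt2b15 had 10386 and 8012, a log2 ratio of -0.37, and Ugt2a1, best known from the olfactory epithelium, had 154 and 121, a log2 ratio of -0.35. Ugt2b, the remaining gene, described because it completes the 5, had a log2 ratio of -0.27 on its brighter probe set and -0.60 on its dimmer one. With poly-A scaling Ugt2b10 and Ugt2b35 stayed below 0, at -0.98, short of the 2-fold limit, and -0.05, as did the dimmer probe set of Ugt2b, at -0.16, whereas Ugt2b15, Ugt2a1 and the brighter probe set of Ugt2b turned positive, at 0.07, 0.09 and 0.17.

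The Ugt1a genes share their last exons, and 2 probe sets list 8 of them together, so no single Ugt1a gene could be read. Signals were 17194 and 14234 on one of these probe sets and 4971 and 3722 on the other. The log2 ratios were -0.27 and -0.42, and both turned positive with poly-A scaling, at 0.17 and 0.02. These shared probe sets differed by less than 1.5-fold between the pools.

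Promoters of 3 Ugt2b genes are shown because a run of 25 bases was common to Ugt2b, Ugt2b7, Ugt2b15, Ugt2b35 and Ugt2b37, close to the start of each. The run was found from these genes' sequences after their values were seen, and 7 of 33469 promoters hold it. Each line gives the 120 bases before the start, on the plus strand of GRCr8, at chr14:21122746-21122865 for Ugt2b15, chr14:21462721-21462840 for Ugt2b10 and chr14:21378762-21378881 for Ugt2b1. Capitals mark the run or the stretch most like it.
Ugt2b15: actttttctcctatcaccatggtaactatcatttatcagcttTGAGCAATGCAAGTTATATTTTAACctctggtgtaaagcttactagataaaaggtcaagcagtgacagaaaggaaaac
Ugt2b10: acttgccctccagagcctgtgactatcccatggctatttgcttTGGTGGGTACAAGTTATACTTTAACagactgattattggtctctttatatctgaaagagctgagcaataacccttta
Ugt2b1: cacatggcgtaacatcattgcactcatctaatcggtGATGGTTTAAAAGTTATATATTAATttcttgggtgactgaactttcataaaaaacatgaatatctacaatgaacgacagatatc
The stretch of Ugt2b10 differed from the run at 7 of 25 bases and that of Ugt2b1 at 10. A count of 10 was also the lowest in several unrelated promoters, among them Sult1e1, so the stretch of Ugt2b1 is no closer than those. The measured genes with the exact run above the floor, Ugt2b, Ugt2b15 and Ugt2b35, had log2 ratios of -0.27, -0.37 and -0.49. The dimmer probe set of Ugt2b gave -0.60. Ugt2b10 and Ugt2b1, without the run, had -1.43 and -0.94. These last genes were not in the set from which the run was sought, so the grouping rests on that choice. Whether the run bears on these values was not tested.

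**Figure D2:**
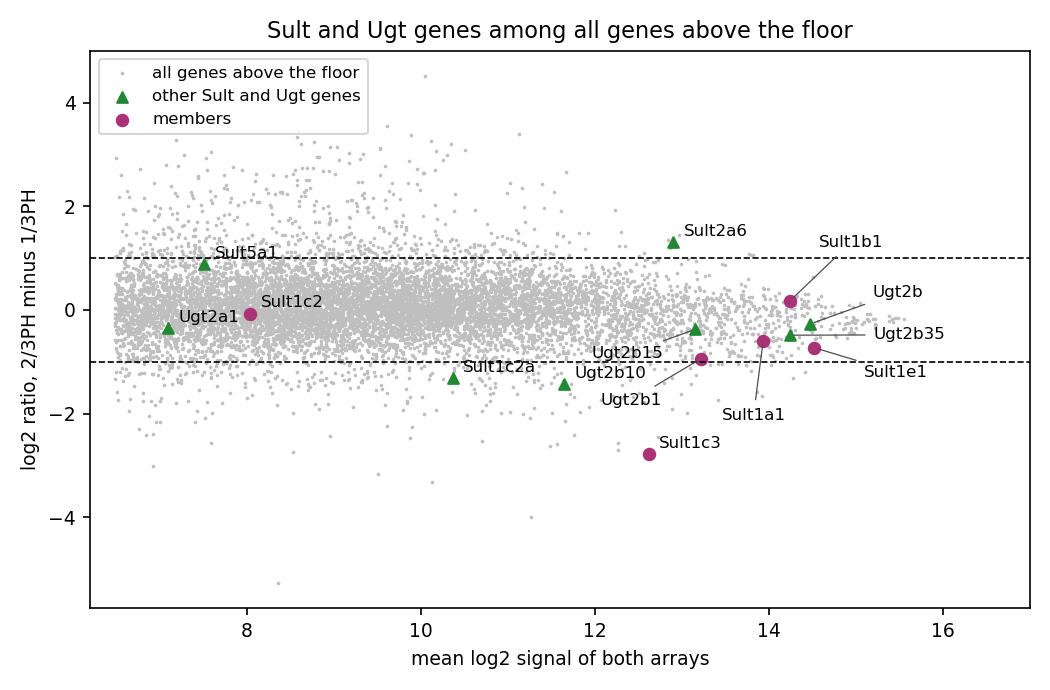
Log2 ratio, 2/3PH minus 1/3PH (y axis), against the mean log2 signal of both arrays (x axis) for 9514 genes above the floor (grey), the 6 members above it (purple circles) and 8 other Sult and Ugt genes (green triangles), with dashed lines at 2-fold. Sult1c3 lies far under the dashed line at -2.78, Sult1c2a and Ugt2b10 just under it, and Sult2a6 above the upper line at 1.30.

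The Ugt2 genes and 3 of the Sult1 genes lie in 1 cluster on rat chromosome 14, which begins with Sult1e1, Sult1d1 and Sult1b1 and goes on through Ugt2a1, Ugt2a3 and the Ugt2b genes. Sult1e1 stood at -0.73 and Sult1b1, 2 genes on, at 0.18, with the dim Sult1d1 between them. From Ugt2a1 to Ugt2b35 the measured ratios lay between -0.49 and -0.27 on each gene's brightest probe set. The dimmer probe set of Ugt2b gave -0.60. The cluster's lowest ratios were those of Ugt2b1 and Ugt2b10, which are adjacent. In the Sult2a cluster on chromosome 1, 1 of the 3 measured genes passed the floor, and in the Sult1c cluster on chromosome 9 all 3 measured genes did.

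**Figure D3:**
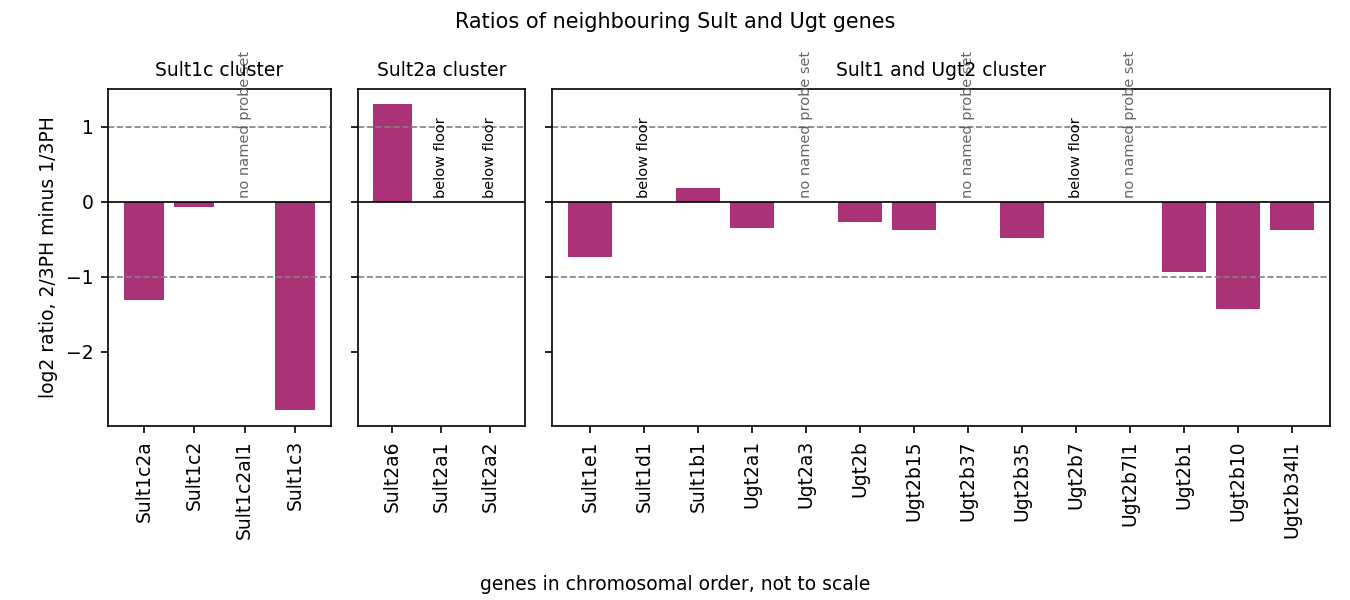
Log2 ratio, 2/3PH minus 1/3PH (y axis, bars), of Sult and Ugt genes in RefSeq gene order (x axis, not to scale) in 3 clusters, with dashed lines at 2-fold. Only genes whose symbol begins with Sult or Ugt are drawn, and the family of the genes left out was not checked. Genes under the floor or without a named probe set have no bar; the lowest bars are Sult1c3 at -2.78, Ugt2b10 at -1.43 and Sult1c2a at -1.32, and Sult2a6 at 1.30 is the highest.

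Ordered by ratio, the members ran Sult1c3, Ugt2b1, Sult1e1, Sult1a1, Sult1c2 and Sult1b1. An error internal to the arrays came from 2067 pairs of probe sets for the same gene: their log2 ratios differed with an SD of 0.44, which makes 0.31 for a single probe set. The gap from Sult1c3 to Ugt2b1 was 1.84, far larger than 0.44, and that from Sult1a1 to Sult1c2 was 0.53, only slightly larger. Sult1a1 and Sult1c2 lay closer together with quantile normalization, at -0.44 and -0.16, and with loess, at -0.44 and -0.13. Their order is therefore not firm. The gaps from Ugt2b1 to Sult1e1, from Sult1e1 to Sult1a1 and from Sult1c2 to Sult1b1 were 0.21, 0.13 and 0.25 on the deposited scale. The order within those pairs cannot be read there. Sult1c2 and Sult1b1 lay slightly more than 0.44 apart with quantile normalization, at -0.16 and 0.33, and with loess, at -0.13 and 0.35. Whether their order can be read therefore depends on the scaling. The error internal to the arrays holds no difference between animals.

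**Figure D4:**
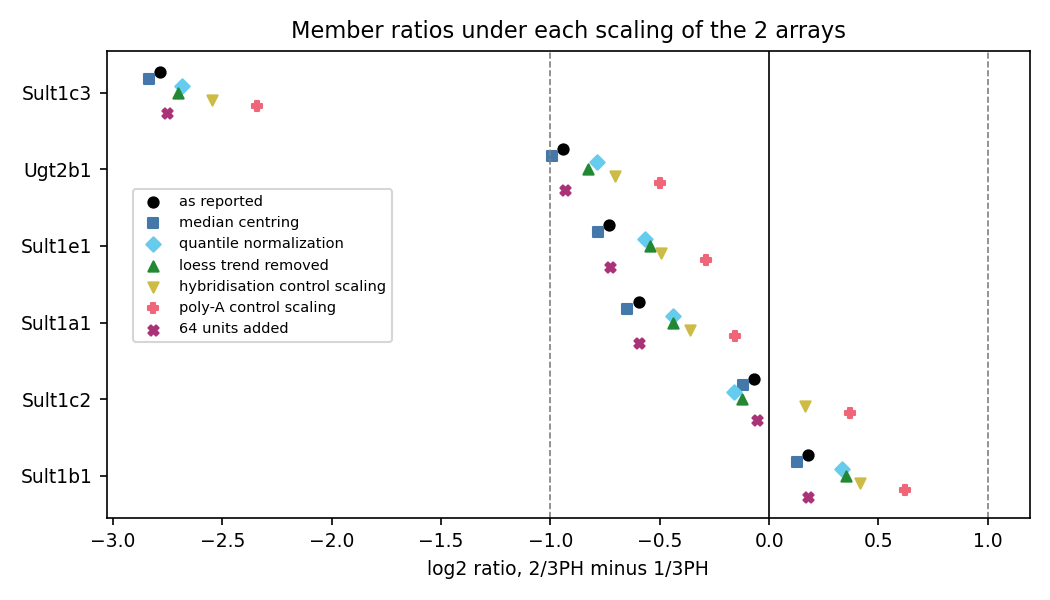
Log2 ratio, 2/3PH minus 1/3PH (x axis), of the 6 members above the floor (rows) on the deposited scale (black circles), under 5 other scalings of the arrays and with 64 units added before the log, with dashed lines at 2-fold. Sult1c3 stays between -2.84 and -2.34, while Sult1c2 is on both sides of 0.

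The donor of glucuronate is made from UDP-glucose, and all 5 measured genes of its supply had ratios below 0 on the deposited scale, with a median of -0.35 and none past 2-fold. Slc35d2, a nucleotide sugar transporter, had signals of 936 and 520, a log2 ratio of -0.85. Entpd5, a nucleoside diphosphatase of the endoplasmic reticulum, stood at -0.56, and Ugp2, which makes UDP-glucose, at -0.35. Pgm1, which feeds it, stood at -0.18, and a second of its probe sets at -0.64. Ugdh, which makes UDP-glucuronate, was not among the 4 with the largest ratios, and was chosen after its value was seen, with 11643 and 10465, a log2 ratio of -0.15. With poly-A scaling Slc35d2 and Entpd5 stayed below 0 and Ugp2, Pgm1 and Ugdh turned positive.

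The sulfate donor genes were split. Of 7 above the floor, 3 had ratios below 0 and 4 above, with a median of 0.13 and none past 2-fold. The PAPS synthases went opposite ways, Papss1 from 544 to 810, a log2 ratio of 0.57, and Papss2 from 7755 to 5198, a log2 ratio of -0.58. A second probe set of Papss2 gave -0.54. Slc35b3, which carries PAPS into the Golgi, stood at -0.72, and Bpnt1, which removes the phosphate of the spent donor, at 0.31. Each of these 4 kept its sign in all 5 scalings, and Papss1 passed the 2-fold limit with poly-A scaling, at 1.02.

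Enzymes listed as cleaving sulfates or glucuronides were also split, 2 below and 2 above 0. Arsb, a lysosomal arylsulfatase, stood at 0.93 on its brighter probe set and 0.09 on the other, and Sts, the steroid sulfatase, at -0.66. Gusb, the glucuronidase, stood at 0.25 and Arsa at -0.20, which turned positive under both control scalings. None of the 4 passed 2-fold on the deposited scale, and Arsb did so under both control scalings, at 1.17 and 1.37.

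Among 8 other conjugation enzymes, 6 had ratios below 0, 1 was at least 2-fold lower and none higher. Glyat, which joins acids to glycine, had signals of 2105 and 521 and was 4.04-fold lower. Baat, which joins bile acids to amino acids, stood at -0.80, and the epoxide hydrolases Ephx1 and Ephx2 at -0.56 and 0.56. These 4 kept their signs in all 5 scalings. Of 5 efflux transporters listed, Abcc2, which pumps glucuronides into bile, was 2.56-fold lower, at 4051 and 1580. With poly-A scaling Abcc2 missed the limit, at -0.92. Abcb1a stood at 0.52, or 0.16 on its other probe set. Abcc3, an exporter to the blood, stood at -0.23 and Abcc4 at -0.11, and both turned positive under both control scalings.

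Transcription factors known to act on these genes included 9 above the floor, 5 with ratios below 0, 4 above 0 and none past 2-fold. Nfe2l2, the oxidative stress factor NRF2, had signals of 3479 and 5940, a log2 ratio of 0.77 that passed the limit under both control scalings, at 1.01 and 1.21. Cux2 stood at -0.68 on its brighter and -1.39 on its other probe set, and Nr1i3, the xenobiotic receptor CAR, at -0.52. Hnf4a, a hepatocyte factor, stood at -0.35, which turned positive, at 0.09, with poly-A scaling. Ahr, Ppara and Rxra were under the floor. Over all pathway lists outside the 10 genes, other Sult and Ugt genes included, 46 genes passed the floor, with a median log2 ratio of -0.19. Of these, 30 had ratios below 0 and 16 above. The median of all genes above the floor was 0.03, so ratios on either side of 0 were common there. Whether the sign counts of any list departed from that background was not tested. The genes called were Glyat, Ugt2b10, Abcc2 and Sult1c2a, which makes 4 lower, and Sult2a6, the 1 higher, of 46 genes, beside 3.68% lower and 6.12% higher among all genes above the floor.

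**Figure D5:**
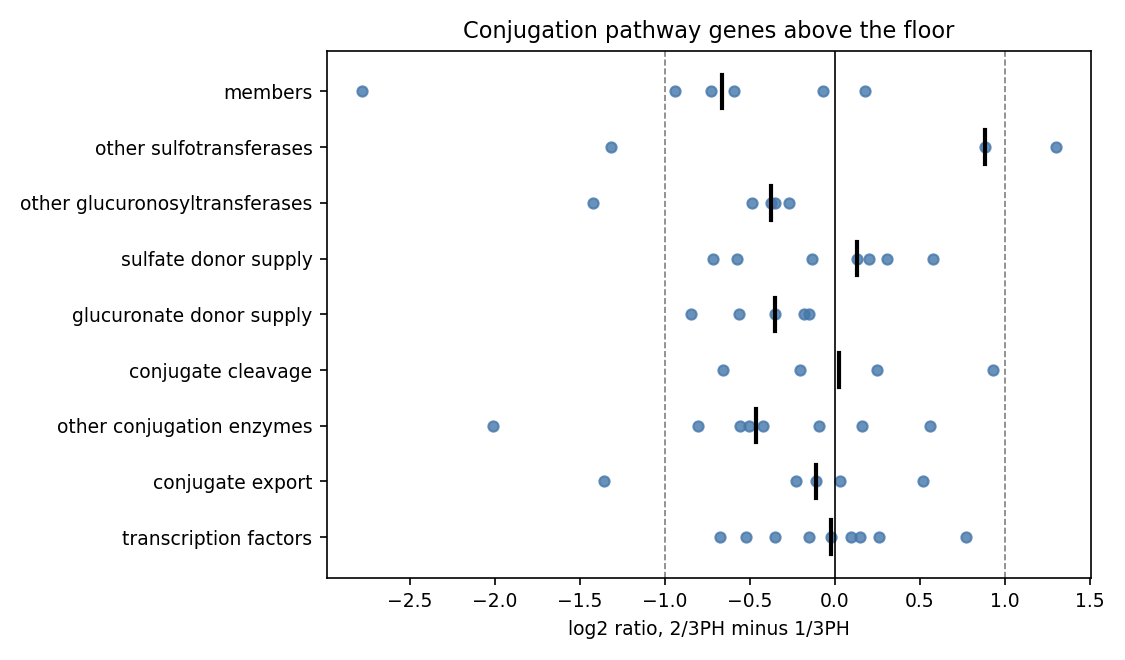
Log2 ratio, 2/3PH minus 1/3PH (x axis), of each gene above the floor (points) in 9 groups of conjugation genes (rows), with a black bar at each group's median and dashed lines at 2-fold. The members' median is -0.66, that of the glucuronate donor genes -0.35 and that of the sulfate donor genes 0.13.

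Defining hepatocyte transcripts were bright on both arrays, as the label liver implies. All 7 measured, among them Alb and Ttr, had ratios between -0.24 and -0.05 on the deposited scale, with a median of -0.18 that turned positive under both control scalings. Their summed signal was 263631 after 1/3PH and 232971 after 2/3PH. Medians of 4 other marker lists were further below 0, at -0.79 over 7 macrophage, -0.69 over 7 endothelial, -0.80 over 7 stellate and -0.99 over 5 blood cell genes. Single markers departed from these: the stellate genes Des and Rgs5 had ratios above 0, at 0.20 and 0.40, and macrophage Cd163, at -0.15, lay within the range of the hepatocyte genes. Endothelial Pecam1 was near equality, with signals of 197 and 196. The summed signals of these 4 lists went from 13593 to 8548, 13225 to 8206, 11909 to 7099 and 30146 to 14647. Of the lymphocyte and intestinal markers 1 of 5 each passed the floor, Gzma and Fabp2. The signals of all 5 lymphocyte markers summed to 331 and 111 and those of all 5 intestinal markers to 587 and 729. The cholangiocyte markers, 3 of 5 above the floor, had a median of 0.23, and all 5 summed to 1293 and 1328. The part of these cells in the member ratios was not tested, and fewer cells of a type cannot be told apart from less RNA per cell.

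Scaling to control probe sets added the same amount to every log2 ratio. The median of all genes above the floor was 0.27 when the arrays were scaled to hybridisation controls and 0.48 with poly-A controls, whose own ratios were -0.24 and -0.44 before scaling. The genes called lower and higher then made up 2.21% and 10.2% of all genes, and 1.29% and 16.8%. Because that amount is constant, the distance of each member from the median of all genes could not change under these control scalings. Other scalings could change it. The medians of the members and of all genes were -0.66 and 0.03 on the deposited scale. They were -0.50 and -0.001 with quantile normalization and -0.49 and 0.02 with loess.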

How the data were processed

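Total RNA of liver remnants was measured on 2 Affymetrix arrays, 1 per group, each with RNA pooled from 3 rats, per the labels and the series' design text. The authors computed MAS 5.0 signals in GeneSpring 11.0, per the labels' protocols, and deposited log2 values of 31099 probe sets. Read as powers of 2, the signals without the top and bottom 2% averaged 500.3 and 500.2 on the 2 arrays, which fits log2. The sources used here give neither detection calls nor a scaling target. Because each array is scaled to a common mean, a change in total RNA per cell cannot be seen.

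Symbols came from the platform annotation, updated through Entrez identifiers to RefSeq (GRCr8); 20826 probe sets had 1 symbol, 436 several and 9780 none. Promoters were taken from RefSeq, and 9 of the 10 genes had one. Where a gene had several probe sets, the brightest on average stood for it. Every member was described; from each other list, at most 4 genes above the floor with the largest absolute ratio were named. Members and lists were chosen with earlier results of these data known. No test was possible with 1 array per group, and the number of arrays limits the precision. The calling step was tested on simulated data. Alternatives were median centring, quantile normalization, loess (span 0.3), scaling to 18 hybridisation or 24 poly-A control probe sets, 64 added units, no floor, a 75th percentile floor, the mean of probe sets, no _s_at, _x_at or _a_at probe sets, and limits of 1.5-fold and 3-fold. Calculations used Python 3.11.15, pandas 2.3.3, numpy 2.4.6, scipy 1.17.1 and statsmodels 0.14.6.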

Additional observations from a re-analysis of the deposited data

How the results depend on the processing

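The single member call, Sult1c3, was lower in all 12 alternatives, and no member was 2-fold higher in any. The count of lower members was 1 in 11 alternatives and 4 with a limit of 1.5-fold on the deposited scale. The members' median log2 ratio lay between -0.73 and -0.43 in 9 alternatives and was -0.22 with poly-A scaling. Of the pathway genes, 4 were lower on the deposited scale. The count was 1 with poly-A scaling, 5 with the mean of probe sets, 7 without a floor, 9 at 1.5-fold and 1 at 3-fold. The 1 higher pathway gene became 4 with hybridisation control scaling, 5 with poly-A scaling, 4 at 1.5-fold and 0 at 3-fold. Control scaling adds a constant to every log2 ratio, and the limits change the call itself; the cause of the rise without a floor was not tested beyond its including dim genes. No paired analysis was possible because each group has 1 array. Dim signal leaves Sult2a1 without a fold.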

Other observations

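Further Sult and Ugt genes were measured, and those given here were chosen after their values were seen. On both arrays 4 of them lay under the floor. Ugt8, which makes galactosylceramide, had signals of 25.1 and 9.10 on its probe set of highest mean and 32.6 and 2.72 on its other one. Sult4a1, a brain sulfotransferase, had 55.8 and 42.5, Sult1d1 12.8 and 17.8, and Ugt2b7 23.7 and 38.1. Ugt2b34l1, which passed the floor, had 318 and 244, a log2 ratio of -0.38 that turned positive, at 0.06, with poly-A scaling.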
